A study of Mus musculus with 8 samples.

Results

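The genes described are 51 chemokines and chemokine receptors, 33 ligands and 18 receptors, measured in the adipose fraction of mouse dorsal skin after hair plucking. They were chosen by gene name on the array, as every Ccl, Cxcl, Ccr and Cxcr gene together with Pf4, Ppbp, Cx3cl1, Cx3cr1, Xcl1 and Xcr1, without the monocyte group of Ccl2, Ccl7, Ccl8, Ccl12 and Ccr2. They were read by 67 of the 55668 probes used and are 51 of 34790 gene names. Well above background on all 8 arrays were 41 of them, 9 were so on some arrays, and Ccl20 was so on none. The array holds no Ccl21 gene under that name, and Ccl21 is not analysed here.

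All mice were female C57BL/6, an inbred laboratory strain. Every back follicle was in the resting phase at the time of shaving or plucking, and the coats had been brought into step by an earlier waxing. The 8 groups hold 1 sample and 1 array each: a control that was only shaved and taken at once, at 10 weeks of age, and skin taken after plucking with wax at 12 h, 1 d, 2 d and 4 d (10 weeks), 6 d and 10 d (11 weeks) and 50 d (17 weeks). The treatment protocol in the labels gives 7 to 8 weeks of age for the mice, and this was not reconciled with the ages of the samples. Of 15 hair shaft and inner root sheath markers, 14 were at least 2-fold above the control at 4 d, 6 d and 10 d. Their summed levels were 79.2, 91.2 and 47.9 times the control's at these times. The material is called adipose cells in the labels and tissue around the follicles, dermis included, in the design text. All 14 mature adipocyte markers searched for were well above background on at least 1 array, with Adipoq between 5.89 and 7.36 and Plin1 between 2.62 and 4.34 over the 8 arrays, but so were all 13 keratinocyte, 12 macrophage and 8 fibroblast markers, so the samples were mixed tissue.

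Chemokines are small secreted proteins that draw leukocytes along a gradient towards their source, and a few are held at the cell membrane. Their receptors are G protein-coupled receptors on the leukocytes, named for the CC, CXC, CX3C or XC spacing of the ligands' cysteines. Inflammatory members are switched on by cytokines and microbial products, many of them through NF-kB and interferon-response sites in their promoters, and homeostatic members guide the steady traffic of cells through skin, gut and lymph nodes. In skin they are made by keratinocytes, fibroblasts, endothelium, fat and resident macrophages.

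Levels are given as the log2 signal of a probe minus the 75th percentile of its array, so they can be compared between arrays for 1 gene but not between genes. A difference is the level at a time minus that in the shaved control. A gene was counted as higher or lower when the difference was at least 2-fold and the gene was well above background on the brighter array. A value not well above background is called dim, and a fold against a dim value is given as at least that many fold. With 1 array in each group there is no replicate, no difference carries a test, and all 7 comparisons share the control array. The technical error was a median SD of 0.056 to 0.089 between repeated spots and of 0.15 to 0.18 between the changes of different probes of a gene, and the spread between mice is unknown. In bulk tissue, more cells of a type and more RNA in each cell cannot be told apart. The arrays were alike in quality: 72.9% to 81.2% of spots were well above background and none was saturated.

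The promoters of 4 of the CXC ligands that were higher at 12 h are shown as examples that carry matches. A link between a match and the 12 h difference was not tested. Each is the 250 bases before the annotated start in the RefSeq promoter table (GRCm38.p6), written 5′ to 3′ along the gene, and the capitals mark matches to the NF-kB consensus. In Cxcl10, the run of capitals nearest the 5′ end instead marks a match to the core of the interferon-stimulated response element. Cxcl1 and Cxcl2 draw neutrophils through the receptor CXCR2, as Cxcl3 does, and Cxcl10 draws T cells through CXCR3.
Cxcl1, chr5:90890995-90891244, plus strand: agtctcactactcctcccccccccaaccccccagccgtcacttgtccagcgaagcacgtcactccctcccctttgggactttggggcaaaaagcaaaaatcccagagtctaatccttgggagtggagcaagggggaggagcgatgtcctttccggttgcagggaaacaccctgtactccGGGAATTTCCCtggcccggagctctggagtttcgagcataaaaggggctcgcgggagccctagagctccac
Cxcl2, chr5:90903649-90903898, plus strand: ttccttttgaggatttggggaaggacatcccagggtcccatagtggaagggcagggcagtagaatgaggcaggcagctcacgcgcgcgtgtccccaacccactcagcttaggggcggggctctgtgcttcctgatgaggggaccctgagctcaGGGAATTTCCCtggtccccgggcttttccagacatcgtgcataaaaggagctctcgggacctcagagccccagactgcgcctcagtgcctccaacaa
Cxcl3, chr5:90785851-90786100, plus strand: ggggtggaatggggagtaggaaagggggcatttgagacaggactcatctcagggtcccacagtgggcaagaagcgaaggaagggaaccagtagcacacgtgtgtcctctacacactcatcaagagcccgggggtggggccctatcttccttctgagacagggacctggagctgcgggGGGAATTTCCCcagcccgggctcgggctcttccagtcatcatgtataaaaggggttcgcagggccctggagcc
Cxcl10, chr5:92348890-92349139, minus strand: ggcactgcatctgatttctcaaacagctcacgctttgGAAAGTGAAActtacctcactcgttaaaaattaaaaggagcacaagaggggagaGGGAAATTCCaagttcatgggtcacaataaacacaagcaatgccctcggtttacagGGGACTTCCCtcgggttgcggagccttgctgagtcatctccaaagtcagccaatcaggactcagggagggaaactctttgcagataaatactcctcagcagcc

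The same 11 letters, GGGAATTTCCC, stood in Cxcl1, Cxcl2 and Cxcl3, beginning 71, 97 and 73 bases before the start. In Cxcl10 the NF-kB matches GGGAAATTCC and GGGACTTCCC began 159 and 103 bases before the start, and GAAAGTGAAA began 213 bases before it. On both strands, the NF-kB consensus was matched in 3.9% of all 32851 promoters in the table and in 8 of 42 promoters of 38 members: those of Ccl20, Ccl9, Ccr3, Ccr6, Cxcl1, Cxcl10, Cxcl2 and Cxcl3. Of the 17 members at least 2-fold higher at 12 h, Ccr6 alone matched beside the CXC ligands shown. The rest had no match or, as Cxcl5, no promoter in the table. The core of the interferon-stimulated response element, 10 letters that hold GAAA at both ends, was matched in 2.98% of all promoters and in 3 of the 42, those of Ccl19, Cxcl10 and Cxcl14. In all 9 patterns were searched, and the NF-kB consensus and the promoters shown were picked after the members' matches had been seen. Of the others, GGGNNTTCC, TTCNNNGAA and a loose pattern of 10 letters were matched in 4.98%, 7.02% and 32.5% of all promoters and in 6, 3 and 13 of the 42. A further 4 were variants of 10 letters that overlap the NF-kB consensus, with GGG and TTCC at the ends: 1 of them (4.65% of all promoters) was matched in 9 of the 42, another (1.21%) in 6, and the last (1.41%), searched as each of its strands, in 6. A match is a string of letters and not a measured binding site, and carriers of the NF-kB consensus did not all behave alike: Ccl9 and Ccr3 were not 2-fold higher at any time, and Ccl20 was dim throughout.

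**Figure D1:**
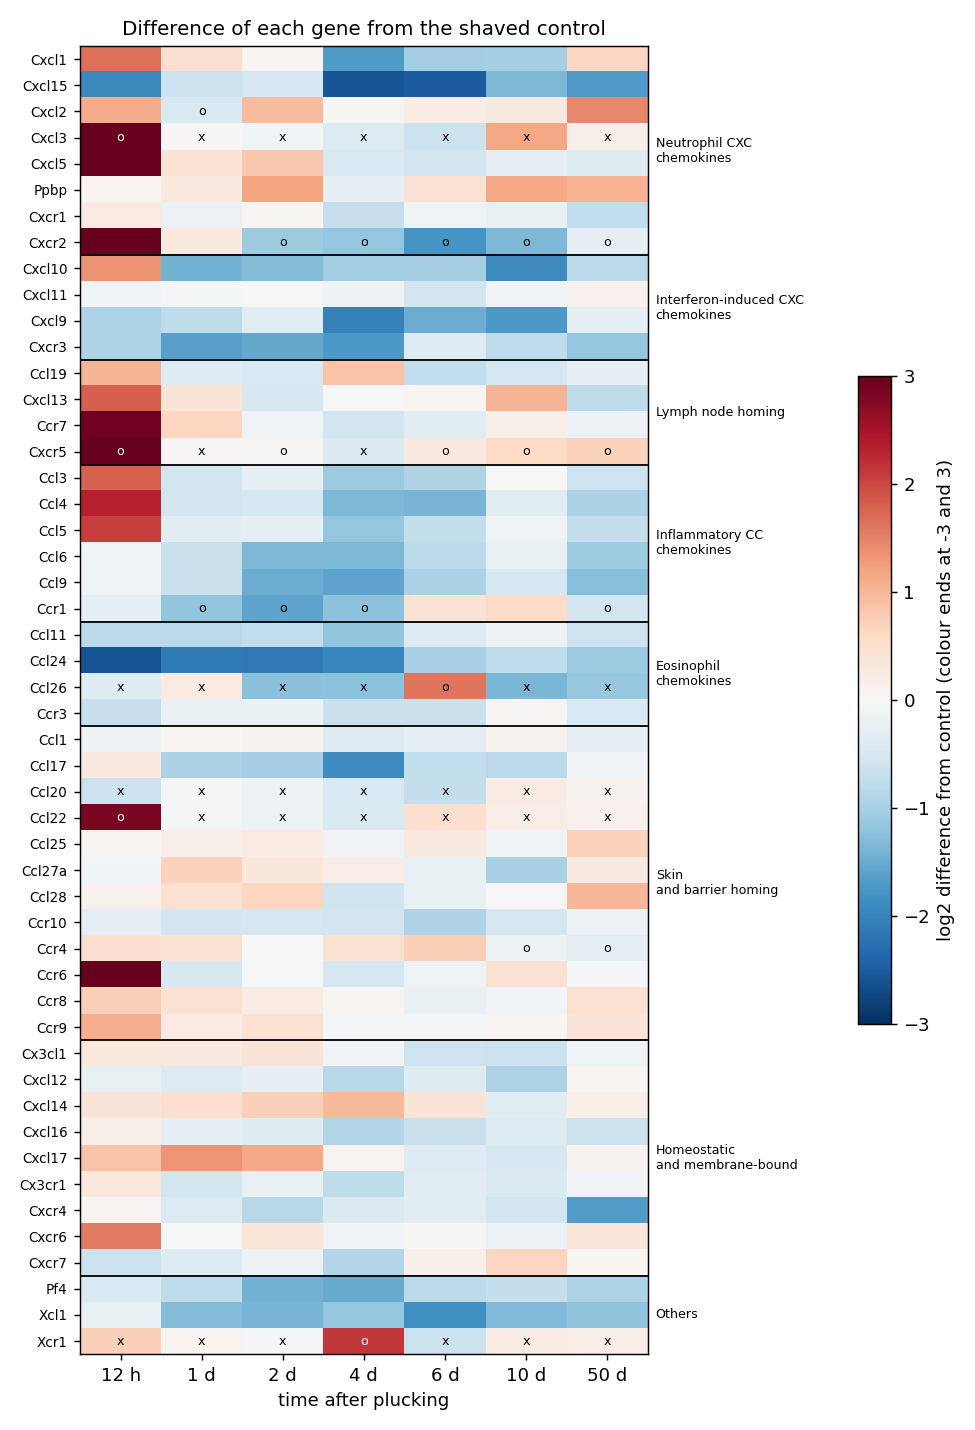
Log2 difference of 50 of the 51 genes (rows, grouped by role) from the shaved control at 7 times after plucking (columns), red for higher and blue for lower; o marks a gene dim on 1 of the arrays compared and x a gene dim on both. The 12 h column holds most of the strong reds, and the 2 d and 4 d columns are blue for the inflammatory CC genes.

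At 12 h most of the members that differed by 2-fold from the shaved control were higher, and at each later time most were lower. These were largely different genes, as 6 of the 35 members counted went both ways. At 12 h, 17 of 48 measured members were at least 2-fold higher and 2 were lower, against 3.86% and 3.33% of all 29606 genes measured. From 1 d on, lower members outnumbered higher ones at each time. With the 50 d array in place of the control, 4 were higher and 2 lower at 1 d (4.01% and 2.68% of all genes). Under this reference 3 and 1 were so at 2 d (3.6% and 2.23%), and 3 and 7 at 4 d (6.77% and 5.46%). The balance thus turned at 1 d and 2 d, for the members and for all genes alike. Against the control the counts were 1 higher and 6 lower of 45 at 1 d (2.67% and 3.21% of all genes). They were 2 and 11 of 46 at 2 d (2.56% and 3.57%), and 1 and 18 of 46 at 4 d (5.86% and 6.58%). They were 1 and 8 of 47 at 6 d (4.18% and 2.09%), 2 and 5 of 46 at 10 d (3.75% and 2.29%), and 3 and 8 of 46 at 50 d (2.71% and 4.4%). From 12 h to 50 d, in order, the members' median differences were 0.26, -0.38, -0.24, -0.67, -0.39, -0.30 and -0.29, while the median of all genes measured lay between -0.13, at 4 d, and 0.022. Over all times 35 members were counted, 22 as higher, 19 as lower and 6 of these in both directions at different times. Without the 12 h array 26 were counted, 7 as higher and 19 as lower. The share of all genes was not counted for these totals over several times, so they describe the members alone. With dim values at their bound the counts at 12 h were 16 and 2 (2.98% and 3.12% of all genes), those at 4 d 0 and 17 (5.21% and 6.05%) and those at 6 d 0 and 8 (3.35% and 1.99%).

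The same was looked at without the control as a reference. Of the 50 members well above background on at least 1 array, 22 (44.0%) had their highest level at 12 h, against 9.37% of 30696 genes. At least 2-fold above all 7 other arrays at 12 h were 13 members (26.0%), against 0.808% of genes: Ccl22, Ccl3, Ccl4, Ccl5, Ccr6, Ccr7, Cxcl1, Cxcl10, Cxcl3, Cxcl5, Cxcr2, Cxcr5 and Cxcr6. With dim values at their bound they were 12, against 0.7% of genes. The lowest level was at 4 d for 22 members (44.0%), against 25.4% of genes. A further 11 members (22.0%, against 12.9% of genes) were highest in the shaved control, and none was 2-fold above all other arrays there (0.384% of genes). These counts were chosen after the members' values had been seen.

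**Figure D2:**
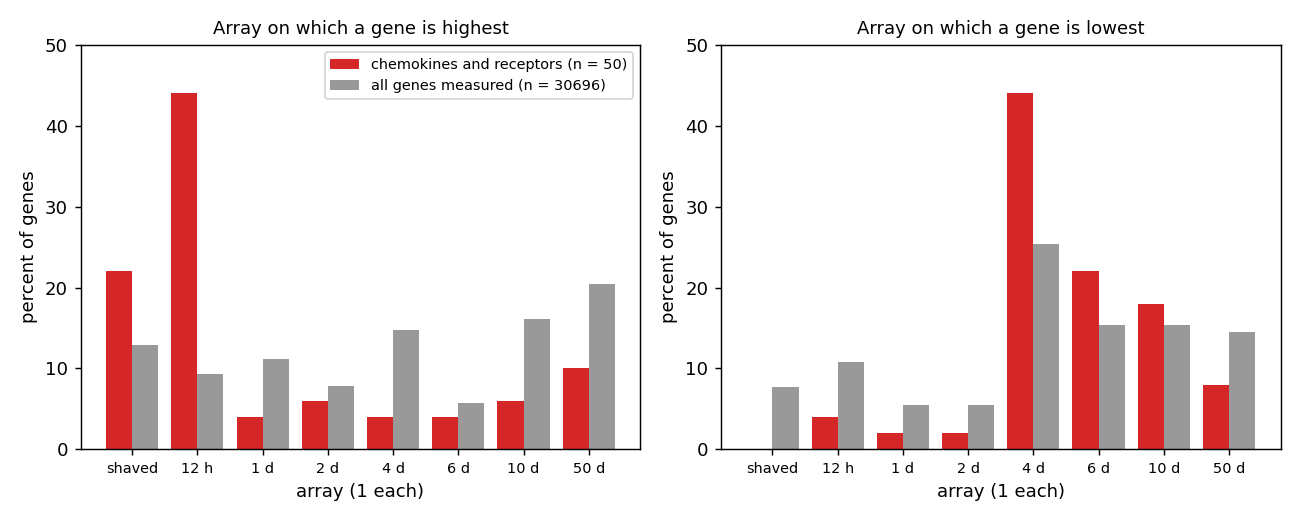
Percent of the 50 measurable chemokine and receptor genes (red) and of 30696 genes (grey) that have their highest (left) or lowest (right) level on each of the 8 arrays, 1 array for each group. The red bar at 12 h reaches 44.0% for the highest level, against 9.37% for all genes, and the red bar at 4 d reaches 44.0% for the lowest, against 25.4%.

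The 12 h sample also stood apart in its markers of lymphocytes and lymph nodes. The B cell list had 7 of 10 members at least 2-fold higher than in the control, with a median difference of 3.59 and a summed level 9.85 times that of the control, and its summed level lay between 2.98 and 4.22 on the other 7 arrays against 37.6 at 12 h. Ms4a1, which encodes CD20, was 52.5-fold higher, and Cd79a, a part of the B cell receptor, was 18.6-fold higher. The T and NK cell list had 6 of 12 higher, with Cd3d 22.2-fold higher and Cd3e at 1.03 in the control and 1.79 at 12 h. Of the list of lymph node vessels and stroma 5 of 9 were higher, with a summed level 3.56 times the control's. Glycam1, a mucin of the high endothelial venules of lymph nodes, was at 5.15 at 12 h, at least 1064-fold higher than in the control, and was dim on each of the other 7 arrays, and Madcam1 was at -1.95 in the control and -0.90 at 12 h. The part of this lymph node and lymphocyte signal in the members' differences at 12 h was not tested, and as the only 12 h array it cannot be left out of the 12 h counts.

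**Figure D3:**
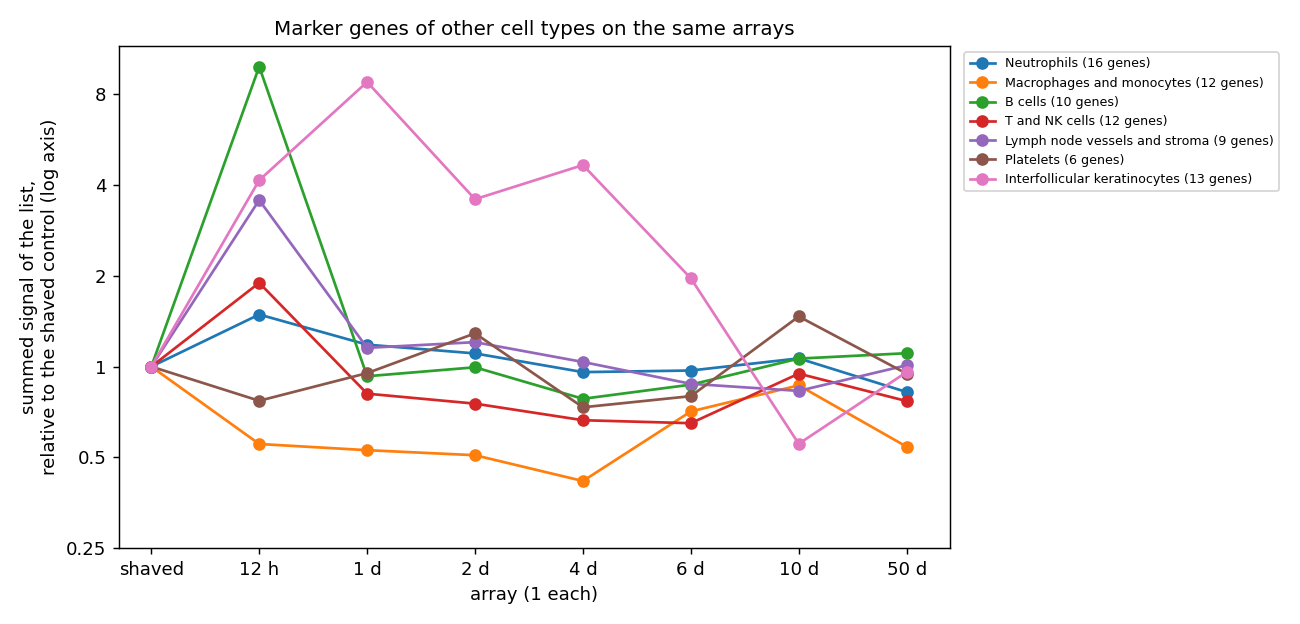
Summed signal of 7 marker lists on the 8 arrays, each relative to the shaved control on a log axis, with the number of genes of each list in brackets. B cell and lymph node markers peaked at 12 h at 9.85 and 3.56 times the control, keratinocyte markers at 1 d at 8.79 times, and macrophage markers were lowest at 4 d at 0.419 times.

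Of the ligands that draw neutrophils, 4 were higher at 12 h, along with their receptor. Cxcl5, a neutrophil chemokine made by epithelium and fat, showed the largest difference of any member measured on both arrays. Its levels were -4.04 in the control, 1.40 at 12 h, then -3.64, -3.23, -4.50, -4.59 and -4.34 from 1 d to 10 d, and -4.41 at 50 d. The 12 h array was high, by 43.3-fold over the control, and the other 7 arrays lay between -4.59 and -3.23. The Cxcl5 probe lies at chr5:91190490-91190549 in mm9, plus strand. Cxcl1, which encodes a major neutrophil attractant of mouse skin, ran at -1.48 in the control, 0.16 at 12 h, then -1.01, -1.44, -3.18, -2.50 and -2.48 from 1 d to 10 d, and -0.86 at 50 d. It was 3.13-fold higher at 12 h and 3.25-fold lower at 4 d. Levels of Cxcl2, a close relative that macrophages make, were -4.48 in the control, -3.38 at 12 h, then a dim -4.93, -3.53, -4.45, -4.26 and -4.22 from 1 d to 10 d, and -3.03 at 50 d. Cxcl2 was higher at 12 h by 2.15-fold and at 50 d by 2.74-fold, so its highest array was the last. With normexp, another background correction, these differences were 0.33 and 0.81, both under 2-fold, and against the 50 d array the 12 h difference was -0.35. Cxcl3 was measured at 12 h alone, with a dim -6.99 in the control, -3.00 at 12 h, then a dim -6.95, a dim -7.06, a dim -7.39, a dim -7.64 and a dim -5.82 from 1 d to 10 d, and a dim -6.81 at 50 d. It was at least 3.74-fold higher there.

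The receptor of these ligands, Cxcr2, which neutrophils carry, was also higher at 12 h. Its levels were -4.31 in the control, -1.18 at 12 h, then -4.01, a dim -5.39, a dim -5.48, a dim -6.08 and a dim -5.66 from 1 d to 10 d, and a dim -4.61 at 50 d. It was 8.80-fold higher at 12 h, and was lower at 2 d, 4 d, 6 d and 10 d, where it was dim; against the bound only the 4 d and 6 d differences remained at 2-fold or more, at 2.07-fold and 2.43-fold. With normexp these 4 differences were -0.24, -0.46, -0.88 and -0.26. Cxcr1, a second receptor for some of these ligands, kept differences between -0.73 and 0.24, none of them 2-fold. The levels of Cxcl15, a chemokine best known from lung, went the other way: -1.98 in the control, -3.92 at 12 h, then -2.62, -2.48, -4.57, -4.48 and -3.34 from 1 d to 10 d, and -3.68 at 50 d. Cxcl15 was highest in the control and at least 2-fold lower at 12 h, 4 d, 6 d, 10 d and 50 d, by 6.00-fold at 4 d. With normexp the differences at 10 d and 50 d were -0.78 and -0.86, and against the 50 d array those at 12 h and 10 d were -0.24 and 0.34. Among 15 measured neutrophil markers at 12 h, 5 were at least 2-fold higher, led by the alarmin genes S100a8 and S100a9 at 22.5-fold and 19.3-fold, which keratinocytes can also make. The defining marker Ly6g was at 1.91 in the control and 1.50 at 12 h, and 1 of the 15 was lower. Keratinocyte markers were higher at the same time, 12 of 13, with a summed level 4.14 times the control's; the part of either cell type in these differences was not tested.

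Ppbp and Pf4, neighbours on chromosome 5 that platelets and their precursors store, did not move together. Pf4, which macrophages also make, had levels of 6.65 in the control, 6.19 at 12 h, then 5.88, 5.23, 5.14, 5.85 and 5.93 from 1 d to 10 d, and 5.72 at 50 d. It was highest in the control and 2.67-fold and 2.83-fold lower at 2 d and 4 d. For Ppbp, whose product is cut to a neutrophil attractant, the levels were -2.28 in the control, -2.22 at 12 h, then -1.99, -1.10, -2.54, -1.86 and -1.13 from 1 d to 10 d, and -1.23 at 50 d. Ppbp was higher at 2 d, 10 d and 50 d by 2.27-fold, 2.23-fold and 2.07-fold, and with normexp these differences were 0.90, 0.87 and 0.89, each under 2-fold. Beside it, the platelet list had a summed level of 1.29, 1.47 and 0.947 times the control's at these times, with differences of -1.24, -1.12 and -1.14 for Itga2b and of 0.75, 0.89 and 0.38 for Gp9. The part of platelets in either gene's differences was not tested.

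**Figure D4:**
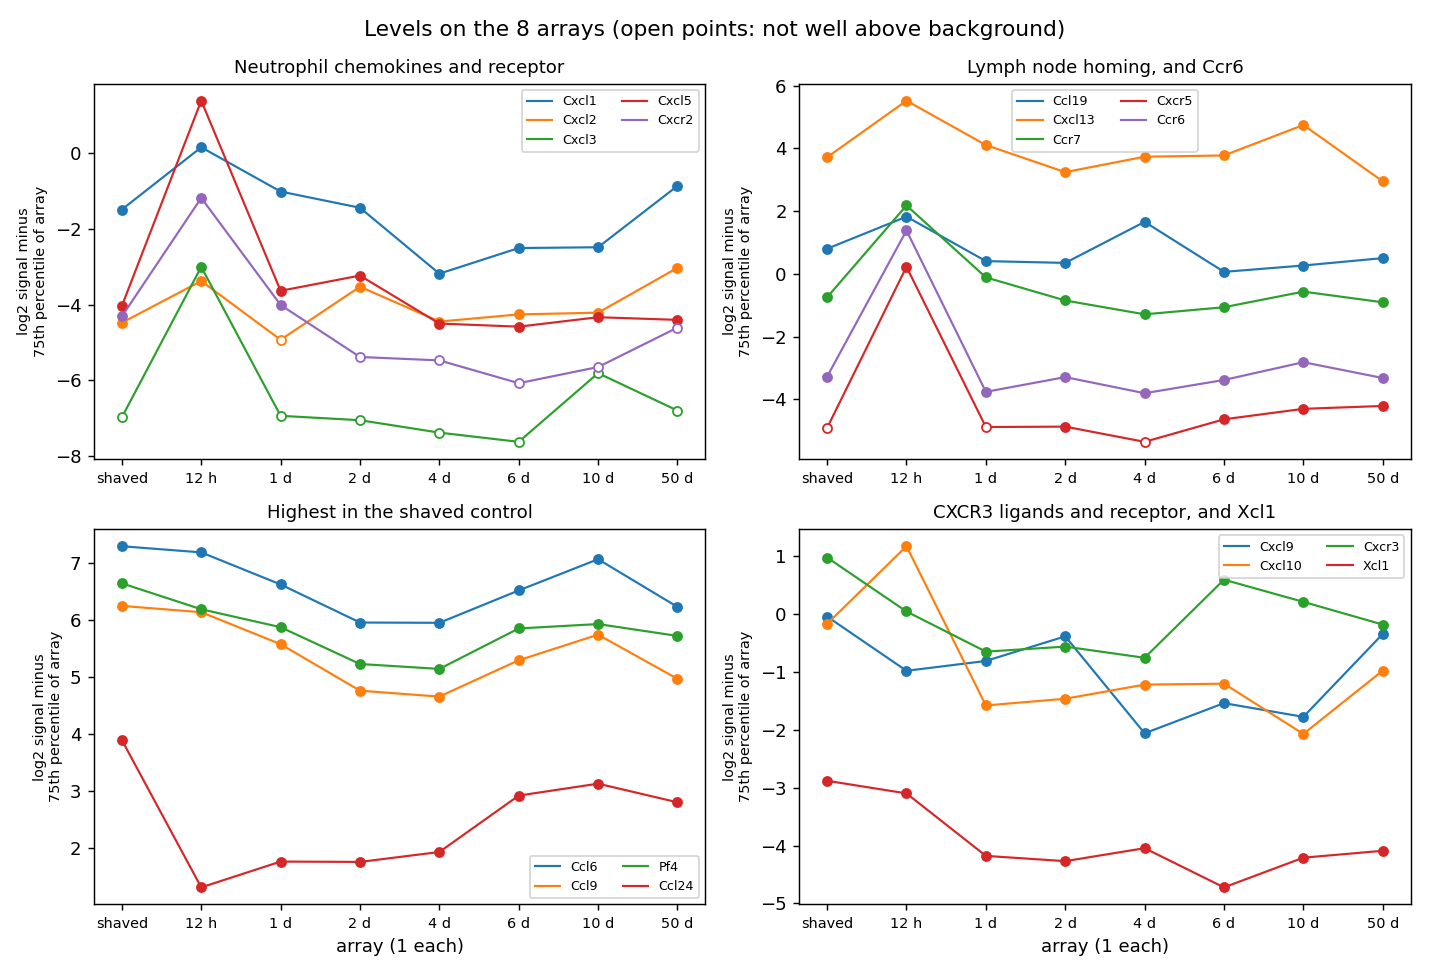
Level of 18 members on the 8 arrays (log2 signal minus the array's 75th percentile), 1 line a gene in 4 panels; an open point was not well above background, and heights should be compared along a line and not between lines. Most lines of the upper panels have a single peak at 12 h, among them Cxcl5 at 1.40 and Ccr6 at 1.38, and Ccl6, Ccl9 and Pf4 have their lowest points at 4 d.

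All 4 measured genes of lymphocyte homing to lymph nodes were higher at 12 h. Cxcr5, the receptor that takes B cells and follicular helper T cells into lymphoid follicles, had levels of a dim -4.91 in the control, 0.22 at 12 h, then a dim -4.88, -4.87, a dim -5.36, -4.64 and -4.30 from 1 d to 10 d, and -4.21 at 50 d. It was at least 35.0-fold higher at 12 h. Its ligand Cxcl13 ran at 3.72 in the control, 5.52 at 12 h, then 4.11, 3.24, 3.73, 3.77 and 4.74 from 1 d to 10 d, and 2.95 at 50 d, which is 3.49-fold higher at 12 h and 2.04-fold at 10 d. Ccr7, which brings naive T cells and mature dendritic cells into lymph nodes, had -0.75 in the control, 2.18 at 12 h, then -0.11, -0.85, -1.29, -1.07 and -0.57 from 1 d to 10 d, and -0.91 at 50 d, 7.61-fold higher at 12 h. Ccl19, a ligand of CCR7, was at 0.80 in the control, 1.82 at 12 h, then 0.41, 0.35, 1.66, 0.062 and 0.26 from 1 d to 10 d, and 0.50 at 50 d. It was 2.03-fold higher at 12 h on its brightest probe, but the other probes gave differences of 0.36 and 0.20, and the mean over the probes was 0.53, so this gene was not 2-fold higher by every probe. Near-identical copies of Ccl19 lie at this locus, and its probes may read several of them. At 10 d, when Cxcl13 was 2-fold higher, the B cell list had 1 of 10 higher and the lymph node list none of 6 measured.

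Ccr6, a receptor of B cells, memory T cells and dendritic cells for the skin and gut ligand CCL20, showed a peak as narrow as that of Cxcl5. Its levels were -3.28 in the control, 1.38 at 12 h, then -3.76, -3.29, -3.81, -3.38 and -2.82 from 1 d to 10 d, and -3.32 at 50 d. It was 25.3-fold higher at 12 h and differed by between -0.53 and 0.46 at every other time. Its only ligand here, Ccl20, was dim on all 8 arrays, so nothing can be said of its change. Ccr9, the receptor that sends T cells to the gut and thymus, had -2.77 in the control, -1.68 at 12 h, then -2.53, -2.34, -2.80, -2.81 and -2.71 from 1 d to 10 d, and -2.37 at 50 d, 2.13-fold higher at 12 h, with a difference of 0.63 with normexp. The levels of Cxcr6, a receptor of effector and tissue-resident T cells, were -1.44 in the control, 0.11 at 12 h, then -1.45, -1.07, -1.52, -1.41 and -1.62 from 1 d to 10 d, and -1.06 at 50 d. It was 2.92-fold higher at 12 h. Its second probe gave nearly the same difference, 1.53 against 1.55, but it overlaps the first and is no separate check. The membrane-bound ligand of CXCR6, Cxcl16, differed by between -0.87 and 0.16.

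Of the inflammatory CC chemokines, 3 were higher at 12 h and all 5 were lower at 4 d. Ccl3, a macrophage and lymphocyte product that acts on CCR1, had levels of -2.64 in the control, -0.86 at 12 h, then -3.20, -2.89, -3.70, -3.53 and -2.65 from 1 d to 10 d, and -3.25 at 50 d. It was 3.42-fold higher at 12 h and 2.09-fold lower at 4 d. Ccl4, its neighbour with a like range of cells, ran at -1.79 in the control, 0.56 at 12 h, then -2.33, -2.27, -3.13, -3.19 and -2.10 from 1 d to 10 d, and -2.73 at 50 d. It was 5.07-fold higher at 12 h and lower at 4 d and 6 d, by 2.54-fold and 2.64-fold. Ccl5, which T cells and NK cells release, was at 1.13 in the control, 3.20 at 12 h, then 0.80, 0.82, -0.028, 0.40 and 1.03 from 1 d to 10 d, and 0.42 at 50 d. It was 4.20-fold higher at 12 h and 2.23-fold lower at 4 d. With normexp the differences of Ccl3 and Ccl4 at 4 d were -0.59 and -0.89, under 2-fold.

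Ccl6 and Ccl9, which mouse macrophages make at rest, showed no such peak. Ccl6 had levels of 7.30 in the control, 7.19 at 12 h, then 6.63, 5.96, 5.95, 6.52 and 7.07 from 1 d to 10 d, and 6.23 at 50 d. Those of Ccl9 were 6.25 in the control, 6.14 at 12 h, then 5.58, 4.76, 4.66, 5.30 and 5.75 from 1 d to 10 d, and 4.97 at 50 d. Both differed by -0.11 at 12 h and were at least 2-fold lower at 2 d, 4 d and 50 d, with the largest differences at 4 d, -1.34 and -1.59. Ccr1, a receptor of several of these chemokines, was at -4.60 in the control, -4.86 at 12 h, then a dim -5.78, a dim -6.17, a dim -5.82, -4.16 and -4.02 from 1 d to 10 d, and a dim -5.18 at 50 d. It was counted as lower at 1 d, 2 d and 4 d, but against its bound each of those folds was under 2, at 1.26, 1.37 and 1.70, and with normexp the differences were -0.074, -0.22 and -0.43.

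Macrophage markers were also lower at 4 d. Of 12 measured macrophage and monocyte markers 11 were at least 2-fold lower at 4 d, with a median difference of -1.57, and none was higher at any time. At 12 h, 1 d and 2 d the lower markers were 5, 5 and 7 of the 12, with medians of -0.83, -0.87 and -1.54, and at 6 d, 10 d and 50 d they were 0, 2 and 8. Cd68 was at 6.05 in the control and 4.15 at 4 d, and Csf1r at 7.00 and 5.85. The summed level of the list was 352 in the control and, in order of time, 195, 186, 179, 147, 250, 305 and 191, so it was lower than in the control at 12 h, when Ccl3, Ccl4 and Ccl5 were higher and Ccl6 and Ccl9 differed by -0.11. The part of macrophage number in the lower CC chemokines was not tested.

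**Figure D5:**
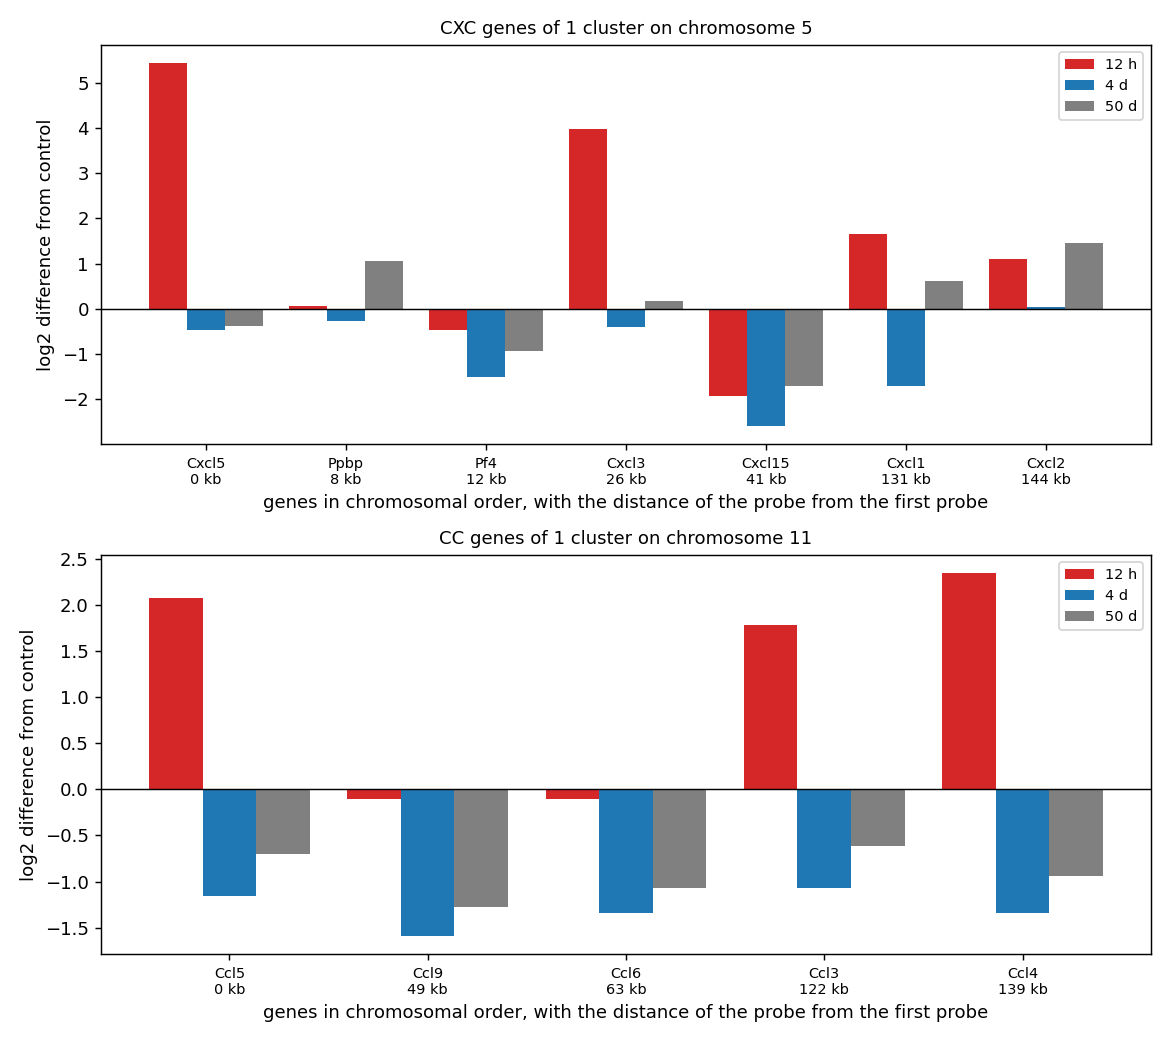
Log2 difference from the shaved control at 12 h, 4 d and 50 d (bars) for the genes of a CXC cluster on chromosome 5 (top) and a CC cluster on chromosome 11 (bottom), in chromosomal order with the distance of each probe from the first in kb. At 12 h neighbours differ in both clusters, from 5.44 for Cxcl5 to -1.93 for Cxcl15 and from 2.34 for Ccl4 to -0.11 for Ccl6; Cxcl3 was dim except at 12 h.

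Both sets of genes lie in clusters, and neighbours within a cluster differed at 12 h. On chromosome 5 (chr5:91190490-91334593 in mm9, from the first probe to the last), Cxcl5, Ppbp, Pf4, Cxcl3, Cxcl15, Cxcl1 and Cxcl2 span 144.1 kb in that order, with differences at 12 h of 5.44, 0.058, -0.46, 3.98 (at its bound 1.90), -1.93, 1.65 and 1.11. The neighbours Pf4 and Cxcl3 thus lay on opposite sides of 0, as did Cxcl3 and Cxcl15. On chromosome 11 (chr11:83339296-83478111), Ccl5, Ccl9, Ccl6, Ccl3 and Ccl4 span 138.8 kb, with differences at 12 h of 2.07, -0.11, -0.11, 1.78 and 2.34. At 4 d all 5 lay between -1.07 and -1.59. The receptor genes Ccr9, Cxcr6, Xcr1, Ccr1 and Ccr3, which lie near each other on chromosome 9, were mixed in the same way, with Ccr9 and Cxcr6 at 1.09 and 1.55 at 12 h and Ccr1 and Ccr3 at -0.26 and -0.69. The grouping, of members with at most 1 Mb between neighbours, was made after the values were seen.

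Of the ligands of CXCR3, which interferon induces and which draw activated T cells and NK cells, Cxcl10 was lower at 5 of the 7 times, Cxcl9 at 3 and Cxcl11 at none. Cxcl10 alone of these was higher at 12 h, with -0.17 in the control, 1.17 at 12 h, then -1.58, -1.46, -1.22, -1.20 and -2.07 from 1 d to 10 d, and -0.98 at 50 d. It was 2.53-fold higher at 12 h and then 2.66-fold, 2.45-fold, 2.07-fold, 2.05-fold and 3.74-fold lower from 1 d to 10 d. With normexp the differences at 4 d and 6 d were -0.88 and -0.98, just under 2-fold. Its second probe, dim from 1 d on, gave 0.82 at 12 h. Cxcl9 had levels of -0.045 in the control, -0.98 at 12 h, then -0.81, -0.39, -2.06, -1.54 and -1.78 from 1 d to 10 d, and -0.35 at 50 d. It was 4.04-fold lower at 4 d, 2.82-fold at 6 d and 3.32-fold at 10 d, and its second probe gave -1.70 at 4 d against -2.02. The receptor Cxcr3 ran at 0.97 in the control, 0.043 at 12 h, then -0.65, -0.56, -0.76, 0.59 and 0.21 from 1 d to 10 d, and -0.18 at 50 d. It was at least 2-fold lower at 1 d, 2 d, 4 d and 50 d. Cxcl11, the remaining ligand, differed by between -0.56 and 0.12 on its brightest probe and between -0.29 and 0.26 on the other, but neither probe's accession matched a RefSeq gene. Irf7 is an interferon-induced transcription factor among the cytokines and targets that bear on these ligands. It was at least 2-fold lower at every time except 6 d, by 3.27-fold at 12 h and 7.62-fold at 2 d. Its level was 1.41 in the control and -0.30 at 12 h. From 1 d to 10 d it ran at -0.43, -1.52, -1.35, 0.51 and 0.011, and at 50 d it was -0.55. Irf1 differed by -0.96 at 4 d.

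Cytokines that induce chemokines, and their targets, were counted on the same arrays. Of 12 measured cytokines and targets, 3 were at least 2-fold higher at 12 h: Il1b by 6.05-fold, Il6 by 2.29-fold and Tnf by 2.15-fold. At 50 d, when Cxcl2 was higher, 3 of 12 were higher again: Il1b by 3.12-fold, Il6 by 3.05-fold and Tnfaip3, a target of NF-kB, by 2.03-fold. At 10 d, when Ppbp was higher, none of 12 was, and at 2 d 1 of 12 was higher, Socs3 by 2.01-fold. At 6 d 1 of 14 was higher, Il1a, which was dim in the control and at least 1.81-fold higher. At 4 d none was higher and 2 of 13 were lower, Irf7 by 6.77-fold and Nfkbiz by 2.40-fold.

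Of the eosinophil chemokines, Ccl24 and Ccl11 were highest in the shaved control. Ccl24, an eosinophil attractant and product of alternatively activated macrophages, had the largest lower difference at 12 h of any member. Its levels were 3.90 in the control, 1.31 at 12 h, then 1.76, 1.76, 1.93, 2.92 and 3.13 from 1 d to 10 d, and 2.80 at 50 d. It was 6.00-fold lower at 12 h and 4.38-fold, 4.40-fold, 3.90-fold and 2.13-fold lower at 1 d, 2 d, 4 d and 50 d. At these 5 times 5, 5, 7, 11 and 8 of 12 macrophage markers were lower too, and their part in the lower Ccl24 was not tested. Ccl11, or eotaxin, which fibroblasts make, was at 3.46 in the control, 2.65 at 12 h, then 2.65, 2.72, 2.27, 3.08 and 3.32 from 1 d to 10 d, and 2.84 at 50 d. It was 2.28-fold lower at 4 d. Ccl26 was measured at 6 d alone, with a dim -5.54 in the control, a dim -5.90 at 12 h, then a dim -5.30, a dim -6.79, a dim -6.77, -3.94 and a dim -6.91 from 1 d to 10 d, and a dim -6.67 at 50 d. Against its bound it was at least 1.95-fold higher there, which is under 2-fold, and with normexp it differed by 0.058. Their receptor Ccr3 differed by between -0.69 and 0.027.

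Of the 12 genes of skin and barrier homing 5 were at least 2-fold from the control at some time, Ccr6 and Ccr9 among them. Ccl17 and Ccl22, which dendritic cells make and which draw CCR4-bearing T cells, had different courses although they are neighbours on chromosome 8. Ccl17 was at -1.88 in the control, -1.60 at 12 h, then -2.83, -2.89, -3.78, -2.61 and -2.68 from 1 d to 10 d, and -2.00 at 50 d. It was 2.00-fold and 3.74-fold lower at 2 d and 4 d, and differed by 0.29 at 12 h, and with normexp its difference at 2 d was -0.65. Ccl22 had levels of a dim -7.14 in the control, -4.32 at 12 h, then a dim -7.21, a dim -7.30, a dim -7.56, a dim -6.63 and a dim -6.94 from 1 d to 10 d, and a dim -7.00 at 50 d. It was measured at 12 h alone, and against the bound was at least 1.50-fold higher, with a difference of 0.40 with normexp. Their receptor Ccr4 differed by between -0.28 and 0.72. Of the dendritic and Langerhans cell list, 6 of 10 were lower at 4 d, among them Itgax by 3.82-fold, and 1 was higher. The 2 defining markers went up: Cd207 was at -4.33 in the control and -3.46 at 4 d, and Epcam at -0.27 and 0.76. The part of those cells in the lower Ccl17 was not tested.

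Ccl28, a chemokine of mucosal and gland epithelium, had levels of -4.19 in the control, -4.07 at 12 h, then -3.73, -3.55, -4.78, -4.43 and -4.18 from 1 d to 10 d, and -3.19 at 50 d. It was 2.01-fold higher at 50 d, and with normexp the difference was 0.57. Ccl27a, the keratinocyte chemokine for skin-homing T cells, did not differ by 2-fold from the control, but was highest at 1 d, at 2.95, and lowest at 10 d, at 1.29. Keratinocyte markers were also highest at 1 d and lowest at 10 d, with summed levels of 345 and 21.8 against 39.3 in the control, and their part in the course of Ccl27a was not tested. A second Ccl27a probe had the same course, with 0.65 at 1 d and -0.83 at 10 d, but it overlaps the first and is no separate check. The remaining probe, at a separate position, differed by between -0.13 and 0.38. Ccr10, the receptor for CCL27 and CCL28, was highest in the control and at most 1.86-fold lower. The remaining members of the group, Ccl1, Ccl25 and Ccr8, differed by between -0.38 and 0.71 on their brightest probes. For Ccl1 that probe matched no RefSeq gene, and the probe that did match differed by 1.07 at 6 d.

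Of the homeostatic and membrane-bound members, 3 of 9 differed by 2-fold at any time, and Cxcr6 was described with the genes of 12 h. Cxcl17, a mucosal chemokine, had levels of -3.27 in the control, -2.42 at 12 h, then -1.93, -2.12, -3.19, -3.66 and -3.74 from 1 d to 10 d, and -3.16 at 50 d. It was higher at 1 d and 2 d by 2.52-fold and 2.21-fold, when keratinocyte markers had summed levels 8.79 and 3.59 times the control's. At 12 h and 4 d these markers had summed levels 4.14 and 4.66 times the control's, while Cxcl17 differed by 0.85 and 0.074. The part of keratinocytes in these differences was not tested. With normexp the differences of Cxcl17 were 0.87 and 0.695, under 2-fold. Cxcr4, the receptor of CXCL12 on most leukocytes and many progenitors, was at -0.19 in the control, -0.12 at 12 h, then -0.61, -1.01, -0.62, -0.54 and -0.77 from 1 d to 10 d, and -1.87 at 50 d. It was 3.21-fold lower at 50 d and differed by between -0.82 and 0.071 before that. Its ligand Cxcl12, which fibroblasts and fat make, differed by 0.059 at 50 d, or -0.42 on its other probe, and by -0.92 and -0.93 on these probes at 10 d. The scavenging receptor for CXCL12, Ackr3, named Cxcr7 on the array, differed by between -0.89, at 4 d, and 0.64, at 10 d.

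Cxcl14, an epithelial chemokine of normal skin, was highest at 4 d, where 22 of the 50 measurable members were lowest. It was 1.95-fold higher there, just under the 2-fold mark. Its levels were 3.24 in the control, 3.63 at 12 h, then 3.75, 3.97, 4.21, 3.63 and 2.94 from 1 d to 10 d, and 3.44 at 50 d. Cx3cl1, the membrane-bound fractalkine, and its receptor Cx3cr1, carried by resident macrophages, differed by between -0.64 and 0.40 and between -0.76 and 0.31. On a second Cx3cr1 probe the difference at 4 d was -1.31.

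Xcl1, which NK cells and activated CD8 T cells make, was at least 2-fold lower at every time from 1 d on, but with normexp at 6 d alone. Its levels were -2.88 in the control, -3.10 at 12 h, then -4.18, -4.27, -4.04, -4.72 and -4.21 from 1 d to 10 d, and -4.09 at 50 d. The folds were 2.46, 2.62, 2.24, 3.58, 2.51 and 2.31 from 1 d to 50 d, and the difference at 12 h was -0.22. With normexp the differences from 1 d to 50 d were -0.59, -0.69, -0.63, -1.20, -0.62 and -0.52. Set against the 50 d array instead, they were -0.089, -0.18, 0.044, -0.63 and -0.12 from 1 d to 10 d. Beside it, the T and NK cell list had 2, 1, 3, 3, 0 and 3 of 12 members at least 2-fold lower over the same times, and their part was not tested. Its receptor Xcr1, a marker of cross-presenting dendritic cells, was measured at 4 d alone, with a dim -7.11 in the control, a dim -6.40 at 12 h, then a dim -7.04, a dim -7.16, -4.99, a dim -7.75 and a dim -6.88 from 1 d to 10 d, and a dim -6.91 at 50 d. At 4 d its signal was below the lowest measurable signal of the control array, so no fold is given.

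Other genes of chemokine handling were counted in the same way. Among 6 atypical and related receptors, which bind chemokines without the usual signal or bind like ligands, none was higher at 12 h and 1 was higher at 10 d: Ccbp2, now Ackr2, a scavenger of inflammatory CC chemokines, by 2.97-fold. Lower at 4 d were 2 of the 6, Cmklr1 by 3.09-fold and Ccr1l1 by 2.42-fold. Of 12 genes of signalling below the receptors, none was higher at any time and 5 were lower at 4 d, among them Rac2 and Dock2, which leukocytes need to migrate, by 4.12-fold and 3.47-fold. The 5 monocyte chemokine genes that were left out had 2 higher and 2 lower at 12 h, all 5 lower at 2 d and 3 lower at 4 d, with a median difference of -1.345 at both of these times and Ccl2 2.74-fold lower at 4 d.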

How the data were processed

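Total RNA of 8 samples was read on Agilent arrays of 1 colour (Cy3), all on 1 slide. The authors deposited spot intensities made with Agilent Feature Extraction 10.5.1.1, which had subtracted the background and, per the file headers, made no normalization between arrays that is recorded. Probe positions are mm9, per the file headers. No mm9 annotation was used, so exon and UTR positions are not given.

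Outlier-flagged spots were left out, 13 of 55681 probes were dropped for it, and spots of a probe were averaged. The log2 signal was scaled to the 75th percentile of its array, and the brightest probe stood for a gene. For a dim gene, the fold was taken against the higher of its own signal and the lowest signal well above background on that array. The accessions of 60 member probes matched the RefSeq table (GRCm38.p6). All members may be named, and those at least 2-fold from the control are given on all arrays. A few listed genes are counted but not reported here by name. Other lists name their 4 largest differences and the 2 defining markers written first. Members, roles and marker lists were chosen with earlier results of these data known.

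No test was made, with 1 array a group. The counting step was tested on simulated data. Alternatives were normexp with an offset of 50 (limma 3.58.1, R 4.3.3), quantile normalization, centring, 2 background filters, the mean over probes and the 50 d array as the reference; bounds and the counts of highest and lowest arrays were added after seeing the data. Python 3.11.15, numpy 2.4.6, pandas 2.3.3 and matplotlib 3.10.9 were used.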

Additional observations from a re-analysis of the deposited data

How the results depend on the processing

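No paired analysis was possible because each group holds 1 array. Of 119 values of counts under other settings, 96 stayed within 1.5 times the main count, and of 390 values of single genes 268 moved by no more than 0.18, the largest median SD between probes. Normexp background correction gave smaller counts: 0 higher at 1 d, 2 d, 4 d, 6 d and 50 d and 1 at 10 d, and 7 lower at 2 d, 5 at 6 d and 2 at 10 d. Normexp also moved 51 of 80 single values by over 0.18, and the median of all genes at 6 d from -0.09 to -0.20. The cause was not tested. At 12 h normexp left 14 higher, against 1.82% of all genes, and 9 above all other arrays, for which no share of all genes is given. Quantile normalization and centring each gave 2 higher at 4 d, against 6.47% and 6.24% of all genes. Asking for signal on both arrays, or bounds, left 0 higher at 4 d and 6 d, since Xcr1 and Ccl26 are dim in the control. With the 50 d array in place of the control the counts were 1 lower at 12 h (3.4% of all genes) and 4 higher and 2 lower at 1 d (4.01% and 2.68%). They were 3 higher and 1 lower at 2 d (3.6% and 2.23%) and 3 higher and 7 lower at 4 d (6.77% and 5.46%). At 6 d they were 3 higher and 4 lower (6.48% and 4.09%). Under that reference 3 single values changed sign: Cxcl2 at 12 h to -0.348, Xcl1 at 4 d to 0.0444 and Cxcl15 at 10 d to 0.343. No single value changed sign under any other setting. Signal over background limits Ccl20, Ccl22, Ccl26, Cxcl3 and Xcr1, each dim on at least 7 arrays, and the number of arrays limits every comparison.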
